A study of Gallus gallus with 19 samples.

Results

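The control side of the morpholino (MO) experiments gives the baseline transcriptome of the chicken (Gallus gallus) neural plate border (NPB), and it was described from the control MO samples alone. These are 8 of the 19 samples of the series, chosen by their label, and the 11 knockdown MO samples were left out. The paper's methods count more control replicates than the 8 in the series. All 8 came from embryos that were injected and electroporated on both sides at gastrula stage HH4, with a control MO and an empty pCIG vector as carrier DNA on the control side, and collected at the neural fold stage (HH7/HH8-). The opposite side of the same embryos received a translation blocking MO, against Nanog for 4 of the controls, against PouV for 2 and against Klf4 for 2. The samples are named here by experiment and replicate, as Nanog control 1 to 4, PouV control 1 and 3, and KLF4 control 1 and 3. Each sample is a pool of hand-dissected tissue from several embryos, and the sources differ in the number of embryos per pool. The methods call the samples biological replicates, so that p-values below measure the spread between pools. No sample from uninjected embryos was part of these 8, so the baseline is that of electroporated tissue. The labels give the tissue as midbrain and the cell type as neural crest, while the methods describe dissected dorsal neural folds at the level of the border.

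The NPB is the strip of ectoderm between the neural plate and the surface ectoderm. Signals of the WNT, FGF and BMP families pattern it, and transcription factors named border specifiers (ZIC, MSX, DLX, TFAP2, GBX and PAX proteins) act there before the neural crest specifiers such as FOXD3, SNAI2 and SOX10. Its cells give rise to neural crest, placodes, dorsal neural tube and epidermis, and at this stage crest cells have not yet left the neural folds. As background, a read count per gene depends on the length of the transcript as well as on its number of copies. Transcript lengths were not used here, so every order of genes given below is an order of reads, in CPM (reads per 1000000 reads of the scaled library), and not of transcripts.

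The libraries were deep and similar in size, with 31215191 to 42958715 reads counted in genes. Of the 24356 genes in the table, 18235 were read more than 5 times in a control or more, and 15179 (62.3%) had more than 5 reads in each of the 8. A single control held 16067 to 16974 such genes, and 13465 to 13744 genes at or above 1 CPM. The 100 genes with most reads held 20.3% ± 1.07 (SD, n = 8) of the counts of a sample, and 833 to 986 genes together held 50% of them. Spearman correlations between 2 controls, across 13687 genes that are not independent of each other, ran from 0.963 for Nanog control 3 with KLF4 control 3 to 0.992 for Nanog control 3 with Nanog control 4. KLF4 control 3 had the lowest mean correlation with the other controls, 0.970 against 0.977 to 0.983 for the other 7. No pair of libraries was close enough to be a library deposited again, since the chi-square of every pair was at least 19.4 times its degrees of freedom.

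Reads were spread over a wide range of levels. Of the 18235 genes with more than 5 reads in a control, 78 had a mean of at least 1000 CPM, 2207 lay between 100 and 1000 CPM, 7237 between 10 and 100 CPM, 4165 between 1 and 10 CPM and 4548 below 1 CPM. The gene with most reads was MT-CO1, a mitochondrially encoded subunit of cytochrome c oxidase, at 13505 ± 1762 CPM (SD, n = 8). Next came EEF1A1, which delivers aminoacyl-tRNA to the ribosome, at 8814 ± 728 CPM. The mitochondrially encoded ND1, ND5, CYTB, COX3 and ND4 were also among the 10 genes with most reads, with means of 4314 to 6952 CPM. The other 3 of these 10 were ACTB, the cytoplasmic actin, at 5056 ± 446 CPM, the pyruvate kinase gene listed as PKLR at 4573 ± 383 CPM, and TUBB, a beta-tubulin, at 4300.3 ± 655 CPM.

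Genes of basic cell functions were read most as classes. The 13 mitochondrially encoded genes held 4.23 to 6.41% of the counts of a sample, and the 73 cytosolic ribosomal protein genes held 3.78 to 4.82%. Both shares were highest in PouV control 3, and the mitochondrial share was lowest in KLF4 control 3. Of 21 listed glycolysis genes 16 were matched by symbol, and ALDOA, PGK1, ENO3, PKM and SLC2A3 were not. Among the matched ones, those with most reads were PKLR, GAPDH (3591 ± 304 CPM), ENO1 (3069 ± 329 CPM), ALDOC (1343 ± 103 CPM) and LDHB (1199 ± 228 CPM), which convert glucose to pyruvate and lactate. RPL4 (2310.0 ± 152 CPM) and RPLP0 (1570.2 ± 161 CPM) led the ribosomal proteins, and EEF1A1, EEF2 (3977 ± 240.1 CPM) and EIF4G2 (2835 ± 312 CPM) the translation factors. HSPA8 (3043 ± 781 CPM) and HSP90AA1 (1799 ± 640.5 CPM), cytosolic heat shock proteins, led the chaperones. Genes of the cell cycle were well read, as TOP2A, the mitotic topoisomerase, stood at 931 ± 63.9 CPM, PLK1, a mitotic kinase, at 487 ± 37.8 CPM, and MCM5, a replication helicase subunit, at 442 ± 60.7 CPM.

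Of 612 transcription factor genes recognised by symbol, 500 had a mean of at least 1 CPM, 333 of at least 10 CPM and 64 of at least 100 CPM. The factor with most reads was SALL4 (ENSGALG00000041365), a zinc finger protein of pluripotent cells, with a lowest, median and highest level of 668, 929.7 and 1058 CPM. POU5F3 (ENSGALG00000031482), the chicken PouV gene, followed with 717, 847 and 1154 CPM. The E proteins TCF12 and TCF3, general partners of basic helix-loop-helix factors, stood at 729 ± 27.3 CPM and 444 ± 82.6 CPM, and SALL1, a relative of SALL4, at 519 ± 117 CPM. The range of SALL4 overlapped that of POU5F3, while TCF12 lay above SALL1 in all 8 controls.

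Many of the next factors are broadly expressed regulators of stress, metabolism and chromatin. Among them were ATF4 (441 ± 56.9 CPM), which acts in the amino acid stress response, HIF1A (361 ± 28.7 CPM) and its partner ARNT (259.8 ± 13.6 CPM), which act in the hypoxia response, SREBF2 (359.6 ± 73.6 CPM), which drives cholesterol synthesis, ADNP (331 ± 28 CPM), a homeodomain zinc finger protein, the nuclear receptors NR2F6 (318 ± 32.2 CPM) and NR6A1 (305 ± 51.2 CPM), the cap'n'collar factor NFE2L1 (249.7 ± 15.8 CPM) and TFCP2 (237 ± 23.6 CPM). Further factors among the 20 were ID2 (306 ± 90.5 CPM), an inhibitor of basic helix-loop-helix proteins, ZIC2 (291 ± 81.3 CPM), the neural factor SOX11 (277 ± 53.4 CPM), the anterior factor OTX2 (224 ± 58.8 CPM) and MYCN (223 ± 62.4 CPM). The order itself was not settled by a test. In an exact two-sided sign-flip permutation test over the 8 samples, 0 of the 19 neighbouring pairs differed after Benjamini-Hochberg adjustment. The smallest p the test can give is 0.0078125, and with 19 pairs a lone pair at that p cannot pass the adjustment. The count of 0 therefore does not show that neighbours had the same level. The steps with the smallest adjusted p were POU5F3 over TCF12, TCF12 over SALL1 and ATF4 over HIF1A, each at an adjusted p = 0.099 in that exact test.

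**Figure D1:**
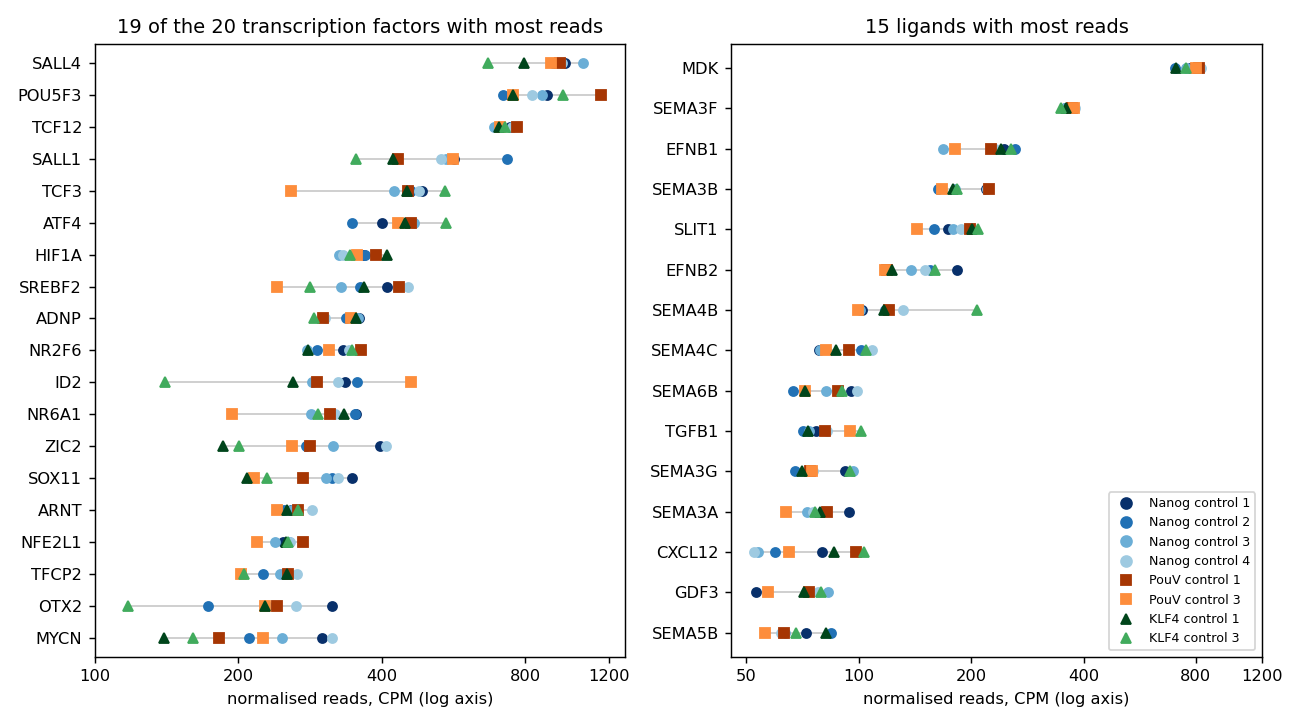
Normalised reads in CPM on a log axis for 19 of the 20 transcription factors (left) and the 15 ligands (right) with most reads, with 1 point per control sample and a grey line from the lowest to the highest. Neighbouring genes overlap along most of both lists, whereas MDK lies above every other ligand in all 8 controls and ID2, OTX2 and SALL1 reach their lowest point in KLF4 control 3.

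Secreted and membrane-bound signals were recognised by symbol in the same way. Of 112 ligand genes, 80 had a mean of at least 1 CPM, 52 of at least 10 CPM and 7 of at least 100 CPM. MDK, the heparin-binding growth factor midkine, was read most, at 701, 764 and 824 CPM (lowest, median and highest). The next 6 were guidance and contact signals, namely SEMA3F (366 ± 11.7 CPM), EFNB1 (226 ± 34.2 CPM), SEMA3B (192 ± 24.8 CPM), SLIT1 (181 ± 22.3 CPM), EFNB2 (143 ± 23.2 CPM) and SEMA4B (125 ± 35.5 CPM). Semaphorins, slits and ephrins are known for steering axons and migrating cells. MDK lay above SEMA3F in all 8 controls by 1.06 ± 0.063 (SD) on the log2 scale, SEMA3F above EFNB1 by 0.71 ± 0.24 and SEMA4B above SEMA4C by 0.41 ± 0.24. These were the 3 of 14 neighbouring pairs that passed the exact sign-flip permutation test, each at an adjusted p = 0.0365. The order and the test came from the same 8 samples, and reads of different genes also depend on transcript length. These p-values therefore measure only how steady a gap in reads was across pools, and not which ligand had more transcripts.

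Below these the ligands lay close together, from SEMA4C at 91.8 ± 12 CPM to SEMA5B at 68.9 ± 9.95 CPM, and included SEMA6B, SEMA3G and SEMA3A. TGFB1 (81.7 ± 11 CPM), the chemokine CXCL12 (74.9 ± 20 CPM) and GDF3 (71 ± 10.5 CPM), a ligand of the TGF-beta family, were in the same range. The exact sign-flip test did not separate any of the neighbours from SEMA4C to SEMA5B (adjusted p of 0.328 to 0.812).

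The classical border signals lay lower. Among BMP ligands, which pattern the ectoderm from its lateral side, BMP4 stood at 41.6 ± 4.77 CPM, BMP5 at 29.4 ± 10.1 CPM, BMP7 at 28.3 ± 4.81 CPM and BMP2 at 22.5 ± 9.02 CPM. Among 19 WNT ligands, 11 had a mean of at least 1 CPM, led by WNT2 (41.5 ± 15.6 CPM), WNT4 (35.6 ± 24.8 CPM), WNT5B (17 ± 5.57 CPM) and WNT1 (15.9 ± 8.47 CPM), while WNT8A ranged from 2.21 to 21.1 CPM. Secreted FGF ligands were low, with FGF19 at 26.6 ± 13.7 CPM, FGF8 at 7.51 ± 4.14 CPM and FGF3 at 7.3 ± 3.34 CPM. No WNT, FGF or BMP ligand was among the 15 ligands with most reads. SHH, the hedgehog ligand of the midline, ranged from 1.24 to 29.5 CPM.

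Several receptors and extracellular inhibitors of the same pathways were read more, again per gene and not per transcript. The BMP inhibitor NOG, given below, was lower than the BMP ligands named above. The WNT receptor FZD7 stood at 1134 ± 112 CPM, and the WNT antagonists SFRP1, FRZB and SFRP2 at 621 ± 147 CPM, 396 ± 95.7 CPM and 359 ± 93.3 CPM. Receptors for FGF were led by FGFR1 (789 ± 62.8 CPM), FGFR3 (320.4 ± 92.2 CPM) and FGFR2 (227 ± 37.3 CPM), with the FGF target ETV5 at 133 ± 23.1 CPM. The follistatin-related FSTL1 stood at 463 ± 60.1 CPM. Of the BMP inhibitors, FST stood at 208 ± 80.2 CPM and CHRD varied from 30.01 to 660.4 CPM. The BMP targets ID3 and ID1 had 184 ± 55 CPM and 95.1 ± 27.4 CPM. NOTCH2 (271 ± 42.9 CPM), NOTCH1 (261 ± 67.1 CPM) and LFNG (182 ± 29.6 CPM), a glycosyltransferase that modifies Notch, were the main Notch pathway genes. The hedgehog pathway was represented by SMO (261 ± 13.5 CPM), CDON (206 ± 33 CPM) and GLI2 (174 ± 28.9 CPM). The retinoic acid degrading enzyme CYP26C1 stood at 406 ± 109 CPM, the retinol receptor STRA6 at 233 ± 56.2 CPM and the binding protein CRABP2 at 226 ± 36.6 CPM. The degrading enzyme CYP26A1 (177 ± 89.7 CPM) had more reads than the synthesizing enzyme ALDH1A2 (21.6 ± 17.5 CPM) in every control except KLF4 control 3, where they had 41.9 and 46.1 CPM.

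The border specifiers were read in every control. All 20 listed had more than 5 reads in each, and 19 had a mean of at least 1 CPM, the exception being ZIC4 at 0.481 ± 0.358 CPM. More than 5 reads in each control was also reached by 25 of 25 neural plate genes and 19 of 21 mesoderm markers. It was reached by 12 of 14 endoderm markers and 62.3% of all genes, so detection alone does not identify border tissue. ZIC2, TFAP2A and GBX2 were among those read most, at 291 ± 81.3 CPM, 138 ± 34.4 CPM and 134 ± 60.4 CPM. BMI1 (93.2 ± 8.78 CPM), DLX5 (79 ± 25.7 CPM), MSX1 (74.9 ± 34.2 CPM), HES4 (73.7 ± 26.7 CPM), DLX6 (53.3 ± 16.6 CPM), TFAP2C (43.6 ± 15.1 CPM) and MYC (41.1 ± 15.9 CPM) were intermediate. PAX7 (ENSGALG00000043204), a standard border marker in chicken, had a lowest, median and highest level of 11.2, 18.8 and 42.3 CPM, and its relative PAX3 of 10.1, 16.9 and 30.3 CPM. CSRNP1 (27.8 ± 8.15 CPM), DLX3 (21.3 ± 6.82 CPM), ZIC1 (20.3 ± 11.4 CPM) and MSX2 (17.7 ± 9.36 CPM) were at a similar number of reads, and TFAP2B (6.1 ± 5.82 CPM) and TFAP2E (2.19 ± 1.52 CPM) were lower.

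Neural crest specifiers were also read. Of 20 listed genes, 19 had a mean of at least 1 CPM. Those with most reads were ID2, MYCN, ID3 and LMO4 (97.1 ± 7.95 CPM), which are not particular to the crest, followed by ERBB3 (75.2 ± 33.6 CPM), ITGB3 (72.7 ± 12.5 CPM), PRDM1 (56.4 ± 9.39 CPM) and ETS1 (53.4 ± 8.39 CPM). The early crest factor FOXD3 had a lowest, median and highest level of 23.3, 51.8 and 101 CPM, SNAI2, a repressor of cadherins, of 25.8, 54.1 and 66.5 CPM, and SOX9 of 14.2, 39.7 and 61.5 CPM. LMX1B (51.7 ± 15.2 CPM), CXCR4 (45.1 ± 12.1 CPM), TWIST1 (24.8 ± 6.27 CPM), SOX8 (17.8 ± 7.73 CPM), SOX5 (15.9 ± 2.87 CPM), SNAI1 (14.2 ± 7.07 CPM) and RXRG (8.92 ± 0.939 CPM) were read less or similarly. SOX10, the factor of specified and migrating crest, was low and even, at 4.17, 5.17 and 6.92 CPM, and SOX6 stood at 0.300 ± 0.127 CPM. SOX10 was thus among the steadier genes of the list, with an SD of 0.24 on the log2 scale, whereas that of SOX9 was 0.72 and that of FOXD3 0.68.

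Neural plate genes were read as well, and their 25 listed members summed to 1356 to 2923 CPM beside 1063 to 1632 CPM for the border list. CDH2 (N-cadherin), SOX11 and OTX2 stood at 325 ± 54.8 CPM, 277 ± 53.4 CPM and 224 ± 58.8 CPM, and IRX3 (199 ± 34.1 CPM), LHX5 (152 ± 45.8 CPM), SOX21 (147 ± 60.4 CPM), SIX3 (134 ± 72.4 CPM), SOX4 (115 ± 32.3 CPM), SOX3 (107 ± 27.8 CPM), SOX2 (99.7 ± 54.8 CPM) and PAX6 (72.6 ± 52.4 CPM) followed. These include forebrain genes, since SIX3, FEZF2 (43.5 ± 25.3 CPM), HESX1 (37.1 ± 15.1 CPM) and RAX (20.1 ± 8.67 CPM) mark the anterior neural plate. Of the midbrain and hindbrain boundary genes in this list, PAX2 (9.92 ± 8.93 CPM), EN1 (6.49 ± 8.01 CPM) and EN2 (1.16 ± 0.379 CPM) were low. Genes of that boundary held in other lists are not included here. HES6 (49.1 ± 10.5 CPM), IRX1 (38.4 ± 17.2 CPM), IRX2 (36.7 ± 16.8 CPM), SOX1 (19.2 ± 7.75 CPM), FEZF1 (12.9 ± 8.49 CPM), LHX2 (4.45 ± 2.84 CPM) and HES5 (2.88 ± 2.79 CPM) were lower or similar, and SIX6 had a mean of 0.958 CPM.

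Genes of the surface ectoderm and placode list were read too. CDH3 (P-cadherin) was the most read of the list, at 1662 ± 256 CPM, with KRT7 (495 ± 234 CPM), KRT18 (262 ± 114 CPM) and EPCAM (252 ± 42 CPM) next. CDH3 alone gave 1662 of the mean list sum of 3418 CPM. Whether these reads came from surface ectoderm was not tested. The preplacodal genes EYA2 (75.2 ± 17.1 CPM) and SIX4 (54.4 ± 12.8 CPM) and the surface ectoderm genes GATA2 (88.6 ± 22 CPM), CDH1 (68.2 ± 11.9 CPM), BAMBI (52.7 ± 31.5 CPM), FOXI3 (40.7 ± 10.4 CPM) and GATA3 (27.2 ± 8.72 CPM) had means of 27.2 to 88.6 CPM. The epidermal factors GRHL3 (6.15 ± 2.68 CPM) and TP63 (5.22 ± 1.25 CPM), as well as EYA1 (10.7 ± 2.45 CPM) and DLX4 (1.22 ± 0.357 CPM), were low, and FOXI1 was near 0 at 0.115 ± 0.187 CPM.

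Genes known from pluripotent cells were among the most read regulators. DNMT3B, a de novo DNA methyltransferase, stood at 1382 ± 269 CPM, and the RNA-binding protein LIN28A at 641 ± 72.4 CPM with its paralog LIN28B at 64.8 ± 10.6 CPM. Of the 3 factors targeted on the other side of the embryos, POU5F3 had 864 ± 142 CPM, NANOG 7.96 ± 3.51 CPM and KLF4 6.68 ± 1.39 CPM. NANOG was low but read in every control, from 146 to 542 reads, and KLF4 from 171 to 322 reads. KLF5 (41.4 ± 10.7 CPM), TERT (12.1 ± 2.34 CPM), PRDM14 (10.4 ± 2.9 CPM), TFCP2L1 (3.85 ± 1.06 CPM) and KLF2 (2.61 ± 1.1 CPM) had more than 1 CPM, and ESRRB had 0.708 ± 0.322 CPM. Of 24 listed pluripotency and stem cell genes 19 were matched by symbol, and POU5F1, ZFP42, DPPA2, TDGF1 and L1TD1 were not. Together the 19 matched genes summed to 4301 to 6074 CPM, lowest in KLF4 control 3 and highest in Nanog control 1. That sum includes MYC, MYCN, OTX2 and SOX2, which other lists hold as well.

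**Figure D2:**
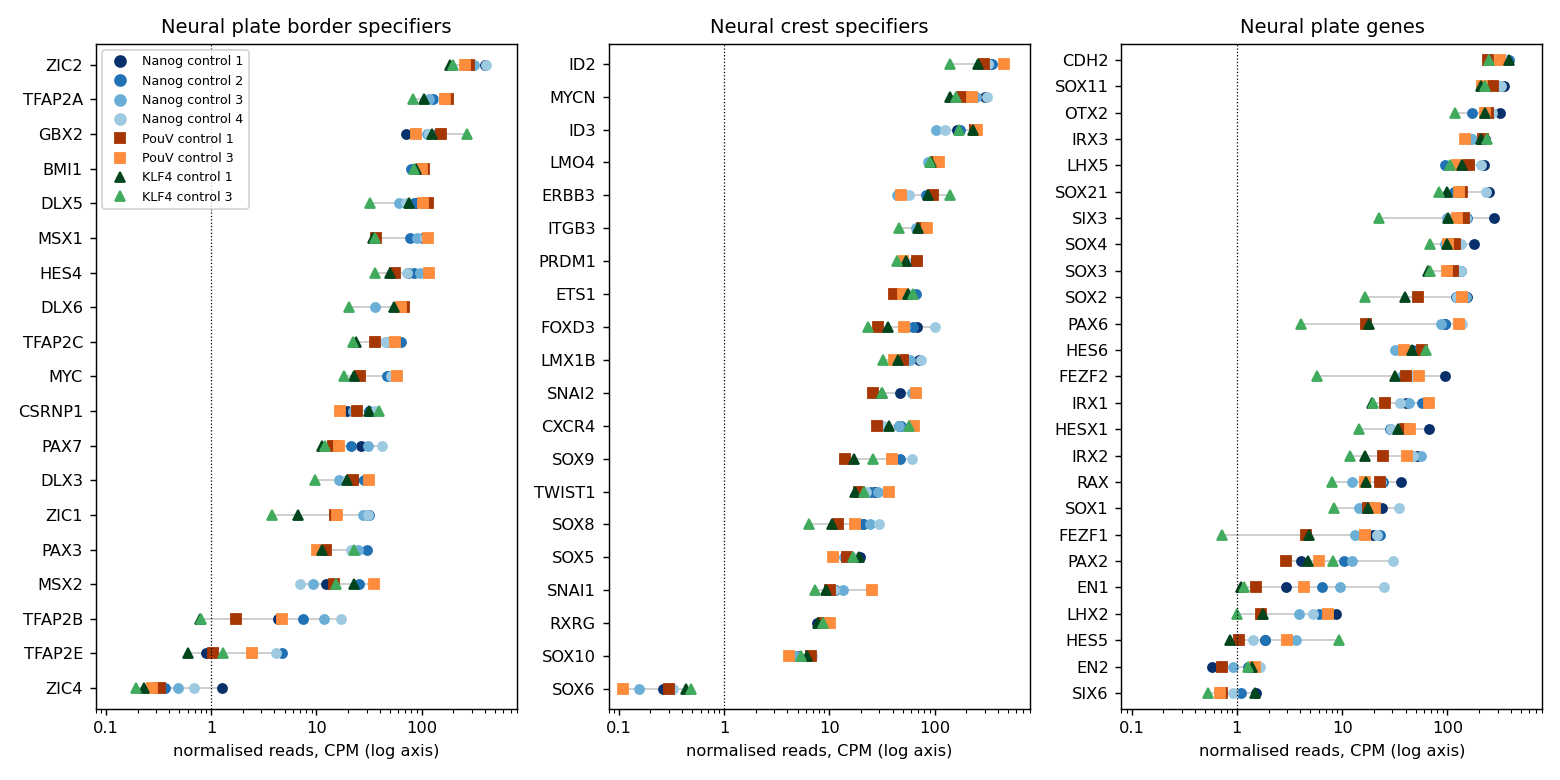
Normalised reads in CPM on a log axis for listed neural plate border specifiers, neural crest specifiers and neural plate genes, with 1 point per control sample, a grey line from the lowest to the highest, and a dotted line at 1 CPM. ZIC2 leads the border list at 291 CPM on average, SOX10 points are close together between 4.17 and 6.92 CPM, and PAX6 and FEZF1 spread widest in the neural plate list.

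Markers of other germ layers were read in all controls, at levels that differed between pools. In bulk tissue, fewer cells of a type and less RNA per cell cannot be told apart. The 14 matched endoderm markers summed to 266 to 1327 CPM, with 363, 935, 266 and 277 CPM in Nanog controls 1 to 4, 570.1 and 646 CPM in PouV controls 1 and 3, and 888 and 1327 CPM in KLF4 controls 1 and 3. Nanog controls 1, 3 and 4 were lower than the other 5 samples. APOA1 (242 ± 196 CPM) and GATA5 (174 ± 109 CPM) gave most of this sum, with FOXA2 (41.9 ± 14.5 CPM), GATA4 (38.6 ± 31.8 CPM), HHEX (31.4 ± 17.5 CPM), GATA6 (26 ± 16 CPM) and FOXA1 (16.9 ± 8.44 CPM) below them, and CXCR4, which is also in the crest list. SOX17 stood at 7.98 ± 4.22 CPM, GSC at 9.13 ± 5.6 CPM, CER1 at 4.3 ± 3.46 CPM, TTR at 5.37 ± 9.59 CPM and HNF4A at 0.743 ± 1.00 CPM.

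The 21 mesoderm markers summed to 709 to 1161 CPM, lowest in Nanog control 1 and highest in Nanog control 2. FOXC2 (139 ± 13.8 CPM), KDR (126 ± 16.9 CPM) and LMO2 (123 ± 76.1 CPM) were read most. Markers of heart and lateral mesoderm (HAND1, HAND2, NKX2-5 and ISL1) and of head mesoderm (ALX1, PRRX1, TBX1 and FOXC1) had means of 12 to 46.6 CPM, and PDGFRA, TBXT and MEOX1 stood at 64.8 ± 18.2 CPM, 64.6 ± 33 CPM and 41.8 ± 18.5 CPM. TAL1 had 37.6 ± 13.9 CPM and TCF15, of the somites, 11.2 ± 8.24 CPM. The presomitic genes TBX6 (2.92 ± 3.65 CPM), MESP1 (0.884 ± 0.599 CPM), MESP2 (0.519 ± 0.295 CPM) and MSGN1 (0.464 ± 0.216 CPM) were low, with the highest TBX6 values in KLF4 control 3 (11.6 CPM) and PouV control 1 (4.00 CPM), and TWIST2 had 1.79 ± 0.682 CPM.

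Of the 9 notochord and floor plate markers, 4 were lowest in Nanog control 3 and 2 in PouV control 1, while 2 were lowest in KLF4 control 1 and 1 in Nanog control 1. Over all genes with a mean of at least 1 CPM, these samples were lowest for 9.41%, 8.57%, 9.03% and 8.06%. With 9 markers these counts were not tested. CHRD, a BMP antagonist of the notochord, was at 37.9 CPM in Nanog control 3 and 30.01 CPM in PouV control 1 and at 212 to 660.4 CPM in the other 6. SHH was at 1.24 and 1.46 CPM in the same samples and at 9.29 to 29.5 CPM in the others. Summed over the 9 matched notochord and floor plate markers, these samples had 174 and 161 CPM against 447 to 962 CPM, and CHRD made up 289 of the mean sum of 501 CPM. The notochord gene TBXT was also lowest there, at 22.1 and 28 CPM against 58.6 to 125 CPM, whereas NOTO, at 28.6 and 17.1 CPM, overlapped the other 6 (21.6 to 56.8 CPM). FOXA2 was lowest in Nanog control 3 (18.7 CPM), but PouV control 1 (42.2 CPM) lay among the others. NKX6-2 (33.6 ± 13.6 CPM), lowest in KLF4 control 1, FOXJ1 (8.2 ± 2.26 CPM), lowest in Nanog control 1, and NOG (4.4 ± 1.56 CPM), lowest in Nanog control 3, were also in the list.

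Some markers of several other cell types were low, while others on the same lists were not. Of 14 listed blood and endothelium markers 9 were matched by symbol, with HBZ the only globin, and of 10 neuron markers 8 were matched. The embryonic globin gene HBZ stood at 1.09 ± 0.857 CPM and RUNX1 at 0.445 ± 0.324 CPM, and the endothelial genes CDH5 and PECAM1 had 4.83 ± 3.81 CPM and 16.5 ± 5.37 CPM. SOX18 (10.8 ± 6.71 CPM) and SOX7 (5.54 ± 2.17 CPM) were in that range. The higher members of the blood and endothelium list, KDR, LMO2 and TAL1, are also in the mesoderm list. Neuronal TUBB3 was read at 298 ± 49.95 CPM, but the neuron markers DCX (28.9 ± 9.7 CPM), ELAVL4 (18.8 ± 2.86 CPM), NEUROD4 (2.58 ± 0.868 CPM), STMN2 (1.62 ± 0.641 CPM), NEUROG1 (1.13 ± 1.37 CPM) and NEUROD1 (0.25 ± 0.129 CPM) were far below it. Of the germ cell markers, PIWIL1 and TDRD1 had 17.6 ± 2.58 CPM and 11.2 ± 2.29 CPM, while the defining genes DAZL (1.23 ± 0.613 CPM), DND1 (0.826 ± 0.535 CPM) and DDX4 (0.665 ± 0.441 CPM) were near 1 CPM.

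Anterior HOX genes varied and the posterior ones were low. HOXB1 ranged from 0.213 CPM in Nanog control 1 to 54.8 CPM in KLF4 control 3 and HOXA2 from 0.824 to 40.6 CPM, with the lowest and the highest value in the same samples. HOXA3 and HOXD3 stood at 3.29 ± 4.13 CPM and 1.75 ± 0.331 CPM. The 10 listed HOX genes with reads and a mean below 1 CPM had means of 0.0692 to 0.913 CPM, and HOXB9 had 0 reads in all 8 libraries, which allows at most 0.069 to 0.0985 CPM in a library (3 counts, counting error only). As background, HOX genes are normally expressed from the hindbrain backwards and not in the midbrain.

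**Figure D3:**
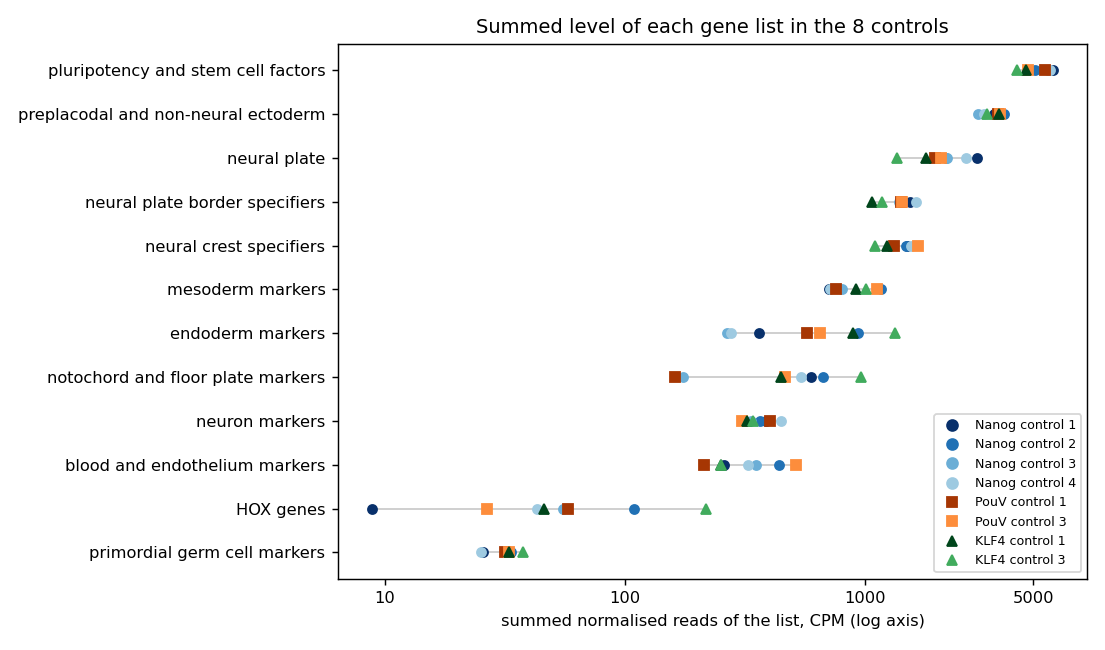
Summed normalised reads in CPM on a log axis for 12 gene lists, with 1 point per control sample and a grey line from the lowest to the highest. The neural plate list spans 1356 to 2923 CPM, the mesoderm list 709 to 1161 CPM and the neuron list 309 to 446 CPM, while the endoderm list spans 266 to 1327 CPM, the notochord and floor plate list 161 to 962 CPM and the HOX list 8.87 to 218 CPM.

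The spread of each gene among the controls was measured as the SD of log2(CPM + 0.5) over the 8 samples. For the 13687 genes with a mean of at least 1 CPM the median SD was 0.23, and the 5th and 95th percentiles were 0.0992 and 0.60. An SD of at least 1 was reached by 130 genes (0.95%), of which 106 have a name. Of the 500 transcription factors at that level, 39 (7.8%) reached that SD, and their median was 0.34. At matched levels, 20 of 269 factors (7.43%) between 10 and 100 CPM had an SD of at least 1, beside 49 of all 7237 genes (0.677%) at that level. For ligands the count was 3 of 80 (3.75%), namely SHH, WNT8A and WNT9B, which were picked out after their values were seen.

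By list, the share with an SD of at least 1 was 4 of 5 HOX genes, 6 of 13 endoderm markers, 7 of 24 neural plate genes, 2 of 8 blood and endothelium markers, 2 of 9 notochord and floor plate markers, 4 of 18 mesoderm markers and 2 of 19 border specifiers. It was 2 of 11 WNT ligands, 3 of 21 BMP receptors, inhibitors and targets and 2 of 14 retinoic acid genes. It was 0 of 19 neural crest specifiers, 0 of 72 ribosomal proteins, 0 of 31 proteasome subunits and 0 of 24 cell cycle genes, and 1 of 16 glycolysis genes. Over all genes it was 0.95%, so a count of 0 in lists of this size is near the share of all genes. The median SD on the log2 scale was 0.14 for the proteasome, 0.16 for ribosomal proteins, 0.34 for pluripotency and stem cell genes, 0.41 for crest specifiers, 0.57 for border specifiers, 0.64 for neural plate genes and 0.96 for endoderm markers, beside 0.23 over all genes and 0.16 over the 2285 genes with a mean above 100 CPM. The lists differ in read level, and no test was made between them.

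**Figure D4:**
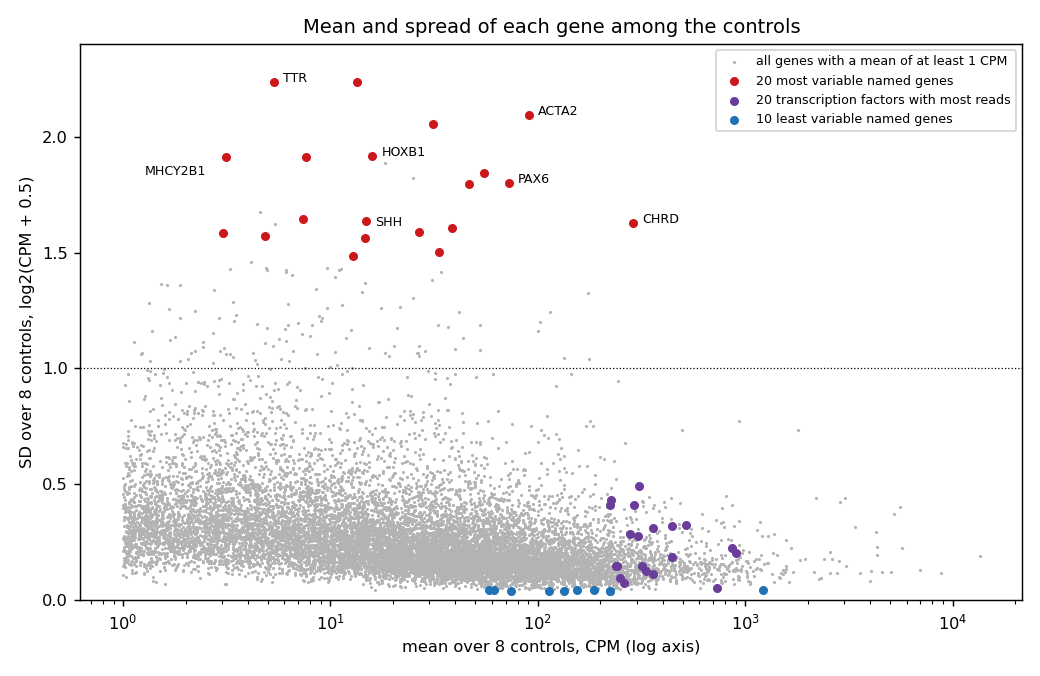
Mean CPM over the 8 controls (log axis) against the SD of log2(CPM + 0.5) for the 13687 genes with a mean of at least 1 CPM (grey), with the 20 most variable named genes in red, the 20 transcription factors with most reads in purple and the 10 least variable named genes in blue. The dotted line marks an SD of 1, above which 130 genes lie, and the transcription factors with most reads all lie below 0.5.

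The 20 most variable named genes are described by known function, a grouping made after their values were seen and not tested. TTR and the fibrinogens are secreted by liver and yolk sac. TTR, which carries thyroxine, was at 27.8 CPM in KLF4 control 3, 8.8 CPM in Nanog control 2, 4.16 CPM in KLF4 control 1 and 1.92 CPM in PouV control 3, and at most 0.0895 CPM in the other 4, where it had 1 to 3 reads. The fibrinogen chains FGB and FGG ran from 1.67 to 103 CPM and from 0.361 to 41.1 CPM. All 3 genes were highest in KLF4 control 3.

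Several of the 20 are known from heart, muscle or lateral mesoderm, among them GATA4, which is also in the endoderm list. The smooth muscle actin ACTA2 was at 282, 217 and 137 CPM in Nanog control 2, KLF4 control 1 and PouV control 3, at 39.1 CPM in PouV control 1 and at 5.71 to 16.9 CPM in the other 4. Cardiac troponin TNNT2 ranged from 3.61 CPM in Nanog control 4 to 124 CPM in Nanog control 2, and HAND1 from 2.23 to 83 CPM. The cardiac factors TBX5, GATA4, TBX3 and HAND2 and the muscle genes MYOM1 and TRIM55 were also lowest in Nanog control 4. Their highest values were 18.3, 93.7, 63.2 and 11.2 CPM in Nanog control 2 for TBX5, GATA4, TBX3 and MYOM1, and 55.8 and 14.1 CPM in KLF4 control 1 for HAND2 and TRIM55. Nanog controls 1, 3 and 4 lay below the other 5 samples for TNNT2, HAND1, TBX5, GATA4, TBX3 and HAND2. The share of all genes with that order was not counted, and these genes were picked for their spread.

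PAX6 and FEZF1 varied in another direction. PAX6, an eye and forebrain factor, was at 87.3 to 136 CPM in the 4 Nanog controls and 129 CPM in PouV control 3, but at 16.9 CPM in PouV control 1, 17.8 CPM in KLF4 control 1 and 4.05 CPM in KLF4 control 3. FEZF1 followed the same split, with 13.1 to 22.7 CPM in the first 5 and 4.56, 4.85 and 0.728 CPM in the last 3. SOX2, outside the 20, was at 122 to 155 CPM and at 52.1, 39.5 and 16.7 CPM in those samples. Not every forebrain gene followed the split. SIX3 and FEZF2 were lowest in KLF4 control 3, but PouV control 1 (145 and 40.03 CPM) lay above Nanog control 3 (99 and 37.4 CPM). PouV control 1 and KLF4 controls 1 and 3 were the 3 lowest samples for 7 of 24 neural plate genes, 7 of 19 border specifiers and 7 of 19 crest specifiers, beside 7.40% of all genes with a mean of at least 1 CPM. Among these were MSX1 (37.1, 34.4 and 35.8 CPM against 77.3 to 114 CPM) and SNAI2 (25.8, 31.8 and 31.4 CPM against 47.4 to 66.5 CPM), as well as FOXD3 and SOX9. Other members went the other way, since PouV control 1 was the highest sample for 4 of 19 border specifiers and the lowest for 0, and its border sum (1407 CPM) lay above that of Nanog control 3 (1383 CPM). Over all genes with a mean of at least 1 CPM, PouV control 1 was highest for 9.46% and lowest for 8.57%. PouV control 1 and KLF4 controls 1 and 3 were also the 3 lowest for 4 of 8 blood and endothelium markers, 3 of 11 WNT ligands and 4 of 18 pluripotency and stem cell genes. They were the 3 lowest for 0 of 72 ribosomal proteins and 0 of 31 proteasome subunits. This split was first seen in the values of PAX6 and was not tested. PAX6, FEZF1 and SOX2 are themselves among the 7 neural plate genes counted, so that count is not independent of the genes that showed the split.

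The other transcription factors with an SD of at least 1 took several patterns, of which some are given here. For GATA5, GATA6, NKX2-5, IRX6, TBX20, MEF2C and EPAS1, Nanog controls 1, 3 and 4 were the 3 lowest samples, and most of these genes are known from heart or endoderm. These genes were picked for their SD, and the share of all genes with the same 3 lowest samples was not counted. The number of genes with this order therefore has no background to be read against. GATA5, an endoderm and heart factor, was at 81.4, 34.2 and 34 CPM in Nanog controls 1, 3 and 4 and at 205 to 297 CPM in the other 5. TBX2 and TCF21, also expressed in the heart region, broke that order, with TBX2 at 3.45 CPM in KLF4 control 3 and 4.14 CPM in Nanog control 1, and TCF21 at 6.8 CPM in Nanog control 1 and 5.06 CPM in KLF4 control 1. The forebrain genes SIX3 and FEZF2 were lowest in KLF4 control 3, at 22.3 and 5.73 CPM against 99 to 279 CPM and 32 to 95.9 CPM. Posterior genes were highest in that sample, with TBX6 at 11.6 CPM, CDX2 at 7.48 CPM and CDX1 at 8.08 CPM against at most 4.00, 5.83 and 4.1 CPM elsewhere. The midbrain and hindbrain boundary genes EN1 and PAX2 were highest in Nanog control 4, at 24.9 and 30.5 CPM against at most 9.63 and 12.4 CPM. TFAP2B, the other variable border specifier beside ZIC1, was also highest there, at 17.2 CPM, and lowest in KLF4 controls 1 and 3, at 0.782 and 0.801 CPM. OLIG2 was at 1.68, 2.18 and 2.48 CPM in KLF4 control 1, PouV control 1 and KLF4 control 3 and at 8.75 to 26.5 CPM in the other 5.

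Further genes of the 20 were the midline genes SHH and CHRD, HOXB1, the homeobox gene listed as LEUTX and MHCY2B1, a gene of the chicken MHC-Y region. LEUTX shared its 3 lowest samples with PAX6 and ranged from 0.0728 CPM in KLF4 control 3 to 18.4 CPM in Nanog control 4. MHCY2B1 was at 10.3, 9.29 and 4.69 CPM in PouV control 1 and Nanog controls 4 and 3 and at most 0.23 CPM in the other 5. Genes of the female W chromosome also differed between pools, with HINTW from 322 to 1430.4 CPM and ATP5F1AW from 61.8 to 261 CPM. Both were lowest in Nanog control 2. The sex of the pooled embryos is not given in the labels.

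**Figure D5:**
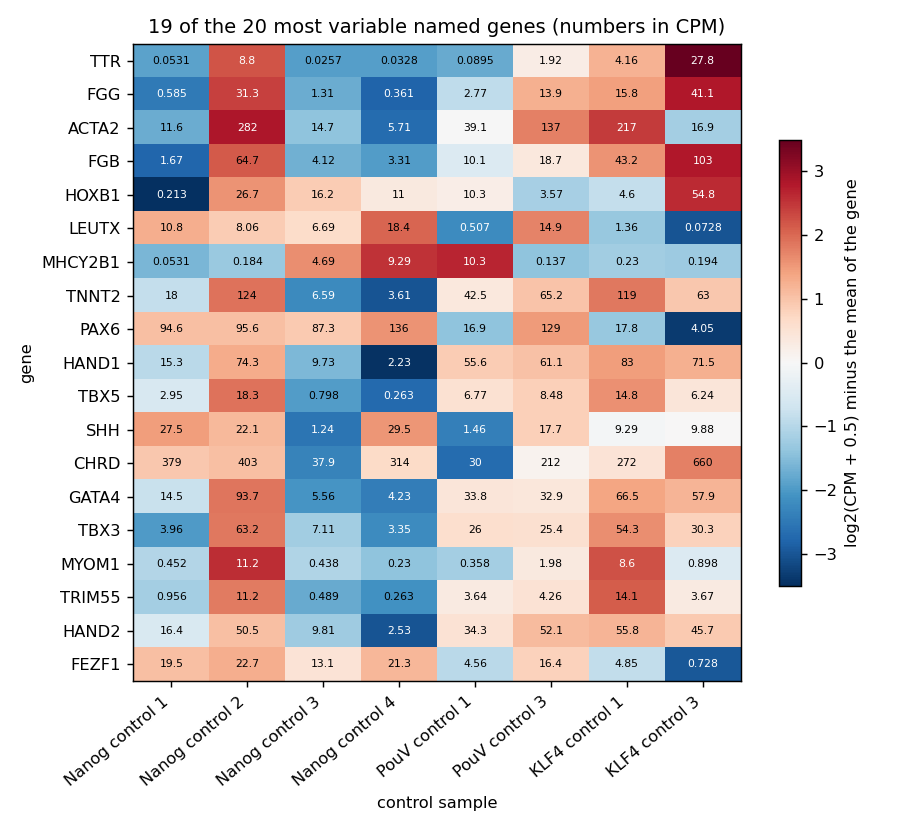
Log2 levels of 19 of the 20 most variable named genes (rows) in the 8 controls (columns), coloured by log2(CPM + 0.5) minus the mean of the gene, with the CPM printed in each cell. Heart genes such as HAND1 and TBX5 are lowest in Nanog control 4 and high in Nanog control 2 and KLF4 control 1, TTR, FGG and FGB are highest in KLF4 control 3, and PAX6 and FEZF1 are lowest there.

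The highest and lowest samples of the variable genes were counted beside those of all 13687 genes with a mean of at least 1 CPM. Of the 130 genes with an SD of at least 1, 34 (26.2%) were highest in Nanog control 2, where 13.1% of all genes were highest. In KLF4 control 3, 34 (26.2%) were highest beside 20.9% of all genes, and in KLF4 control 1, 23 (17.7%) beside 10.6%. Nanog control 4 was the lowest sample for 49 (37.7%) beside 8.5% of all genes, and KLF4 control 3 for 25 (19.2%) beside 22.5%. KLF4 control 3 also had the lowest HSP90AA1 (516 CPM against 1420.3 to 2602 CPM) and the lowest HSPA8 (1491 CPM against 2606 to 4229 CPM). It was the lowest sample for 13 of 24 neural plate genes, 8 of 19 border specifiers and 7 of 19 crest specifiers. It was also lowest for 17 of 28 chaperones, 12 of 24 cell cycle genes and 10 of 13 mitochondrially encoded genes, but for 1 of 72 ribosomal proteins. What part the heat shock level, the mitochondrial share or the tissue taken had in these values was not tested. Without KLF4 control 3, 107 genes had an SD of at least 1, and FEZF1 fell to 0.94.

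The 10 least variable named genes with a mean of at least 50 CPM included COPB1, UPF2, ACBD3, COPB2, XPOT, CTNNB1, NARS, LENG8 and KLHL24, with SDs of 0.038 to 0.044 on the log2 scale. COPB1 and COPB2, coat proteins of Golgi vesicles, stood at 222 ± 5.73 CPM and 224 ± 6.27 CPM. CTNNB1, the beta-catenin of WNT signalling and cell adhesion, was the most read of the 10, at 1152, 1216 and 1274 CPM (lowest, median and highest). UPF2 (134 ± 3.51 CPM) acts in nonsense-mediated decay, XPOT (113 ± 3.26 CPM) exports tRNA and NARS (186 ± 5.52 CPM) charges asparagine tRNA.

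Whether the controls of the 3 experiments differed was asked with edgeR's quasi-likelihood test over 18235 genes. At an adjusted p under 0.05 it called 1 gene (0.00548%), and DESeq2's likelihood ratio test called 554. In edgeR, 2181 genes (11.96%) had an unadjusted p under 0.05, a larger share than the 0.05 expected if no gene differed. The single call therefore does not show that the controls of the 3 experiments were alike. Genes are not independent of each other, and the excess itself was not tested. With 2 or 4 pools in a group, the count of called genes depended on the tool and on single pools. The share at an unadjusted p under 0.05 also depended on single pools. The called gene was ZIC1 (ENSGALG00000040532), a border specifier. ZIC1 was at 30.7, 31.4, 27.9 and 31 CPM in Nanog controls 1 to 4, 14.9 and 15.8 CPM in PouV controls 1 and 3, and 6.71 and 3.81 CPM in KLF4 controls 1 and 3, so that the 3 experiments did not overlap (edgeR adjusted p = 0.0294). Leaving out single libraries ended the call for 4 of the 8, with an adjusted p from edgeR of 0.084 without Nanog control 1, 0.109 without Nanog control 3, 0.102 without Nanog control 4 and 0.0636 without KLF4 control 3. Leaving out any of these 4 gave 0 called genes, while 106 genes were called without Nanog control 2, 24 without PouV control 1, 14 without PouV control 3 and 13 without KLF4 control 1.

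The genes with the next lowest p of the edgeR test did not pass it. CYP26A1, which degrades retinoic acid, averaged 236, 187 and 48.9 CPM in the Nanog, PouV and KLF4 experiments (edgeR adjusted p = 0.0724). The neural plate genes IRX2 and SOX3 and the BMP inhibitor FST, each at an adjusted p = 0.192 in edgeR, had means of 14.2, 67 and 109 CPM in the KLF4 experiment and 49.9, 128 and 271 CPM in the Nanog experiment. Other genes of low p went the other way. ENSGALG00000048556, which has no name, averaged 6.28, 12.4 and 25.7 CPM in the Nanog, PouV and KLF4 experiments (edgeR adjusted p = 0.0989). LGMN averaged 62, 82.3 and 118 CPM in the same order (edgeR adjusted p = 0.192). For the 20 most variable named genes, including PAX6, TTR and HAND1, the adjusted p of the same edgeR test was 0.271 or higher, so none was called as differing between experiments. Their spread still lay between experiments to unlike degrees. That share of the log2 sum of squares ran from 8.46% for HOXB1 to 71.6% for PAX6 and 73.2% for FEZF1. Its median over all genes with a mean of at least 1 CPM was 36.8%. The common biological coefficient of variation was 22.5% around the means of the experiments and 25.1% around 1 mean. The samples of an experiment were prepared from different embryos than those of the others, and experiment, embryos and any difference in handling cannot be told apart.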

How the data were processed

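The authors electroporated chicken embryos with a control MO on one side, dissected the border tissue by hand, and sequenced ultra-low input libraries with paired reads of 150 bases. Per the labels, reads were aligned with STAR 2.7.2a to GRCg6a, and the authors deposited whole-number counts per gene. The annotation release, the strand setting and the treatment of overlapping genes are not given in the sources used here, so reads of antisense or near-identical genes cannot be told apart. The authors also deposited a table of signal values, in which each count is scaled by the TMM library size over all 19 samples; it gave gene names and an alternative normalisation. A filtered copy of the counts was not used. All columns were mapped to samples (0 not mapped). The methods describe a batch effect that the authors removed with RUVs; that step was not used here, because it takes out variation among the controls.

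Counts of the 8 controls were scaled with edgeR 4.0.16 (TMM) in R 4.3.3, over 18235 genes with more than 5 reads in a control, and expressed as CPM. Names came from the authors' table for 12340 of these genes and from RefSeq by gene ID for 1183, and 4712 had none. No transcript lengths were used, so the planned order per kilobase was replaced by one of reads. Levels are means ± SD over 8 controls. Variation is the SD of log2(CPM + 0.5) for genes with a mean of at least 1 CPM. The 3 experiments were compared with edgeR's quasi-likelihood test, with p-values adjusted after Benjamini and Hochberg and a threshold of 0.05, checked on simulated data, with DESeq2 1.42.0 as an alternative. Neighbours in an order were compared with an exact sign-flip permutation test over the same samples that set the order. Named genes are the 20 transcription factors and 15 ligands with most reads, the 20 most variable and the 10 least variable named genes (the last with a mean of at least 50 CPM), the called genes and the members of the gene lists; genes named beside these were chosen after their values were seen. Some genes are not reported here by name, while list counts and sums include them. The samples, lists and tests were chosen with earlier results of these data known. Python 3.11.15 with numpy 2.4.6, pandas 2.3.3, scipy 1.17.1 and matplotlib 3.10.9 was used for the rest. A floor of 3 counts corresponds to 0.0690 to 0.0985 CPM and covers counting error only.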

Additional observations from a re-analysis of the deposited data

Results flagged for a closer look

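Of 142 values examined, 18 (12.7%) had a highest or lowest sample that stood further from its neighbour than Dixon's critical ratio allows, where chance gives about 1 in 20. Many of these values belong to genes chosen as the most variable among the same samples, and they move together, so the share cannot be read against chance. The values below are given without weighing.

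Among the 4 Nanog experiment controls, Nanog control 2 stood apart as the highest sample for markers of heart, muscle and endoderm. Its endoderm markers summed to 935 CPM, and the next Nanog control had 363 CPM. It held 282 CPM of ACTA2 (next 14.7 CPM), 124 CPM of TNNT2 (next 18.0 CPM), 93.7 CPM of GATA4 (next 14.5 CPM), 63.2 CPM of TBX3 (next 7.11 CPM) and 18.3 CPM of TBX5 (next 2.95 CPM). It also held 64.7 CPM of FGB (next 4.12 CPM), 31.3 CPM of FGG (next 1.31 CPM), 11.2 CPM of MYOM1 (next 0.452 CPM), 11.2 CPM of TRIM55 (next 0.956 CPM) and 8.80 CPM of TTR (next 0.0531 CPM). SALL1 was highest in the same library, at 732 CPM with 567 CPM next, and TCF12 was lowest in Nanog control 3, at 689 CPM with 742 CPM next.

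Among all 8 controls, KLF4 control 3 had the lowest mean Spearman correlation with the others, 0.970 with 0.977 next. It had the highest TTR (27.8 CPM, next 8.80 CPM) and SEMA4B (208 CPM, next 132 CPM). PouV control 3 had the lowest TCF3 (258 CPM, next 424 CPM) and NR6A1 (194 CPM, next 283 CPM).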

How the results depend on the processing

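The count of genes differing between the 3 experiments depended most on the processing. From 1 gene in edgeR it became 14 with all genes of at least 1 read, 554 with DESeq2's likelihood ratio test, and 0 to 106 when each control was left out in turn, and it stayed at 1 with RLE size factors and with filterByExpr. With a replicate block it was 21. The labels do not say what the replicate numbers stand for, and samples of different experiments came from different embryos. The correlations of deviations between same-numbered samples ran from -0.039 to 0.241. Where an experiment has 2 controls, their deviations mirror each other. The correlations are therefore not independent and cannot decide whether the numbers pair the samples. The 130 genes with an SD of at least 1 became 55 with a minimum mean of 10 CPM, 57 with 2 CPM added before the log, 105 around the means of the experiments, 130 with RLE size factors and 107 to 157 with each control left out. Of the 20 most variable named genes, 9 stayed among the first 20 by edgeR's tagwise dispersion, 14 with a minimum mean of 10 CPM, 15 around the means of the experiments and 14 to 19 with each control left out. Within experiments the SD was 1.14 for PAX6 and 0.91 for FEZF1. With 2 CPM added it was 1.44 for TTR, 1.15 for MHCY2B1 and 1.03 for MYOM1. It was 0.95 for HAND2 without Nanog control 4 and 0.94 for FEZF1 without KLF4 control 3. The share held by the 100 most read genes was 16.9% without mitochondrially encoded genes and 20.04 to 20.5% with each control left out, and 15198 to 15341 genes were detected in all controls left. The cause of these changes was not tested. The order of genes per kilobase could not be run, since no transcript lengths were used.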
